A study of Homo sapiens with 4 samples.

Results

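RAB proteins are small GTPases that sit on the membranes of transport vesicles and organelles, and the genes described here are those whose symbols begin with RAB and a number. They were taken from the single-symbol probe sets of the array, with the brightest probe set standing for each gene. The rule found 71 of the 18417 genes measured. Of these, 60 encode RAB GTPases, 9 encode proteins that bind or regulate RABs but carry a RAB number in their symbol (such as RAB3GAP1 and RAB11FIP2), and 2 are pseudogenes, RAB1C and RAB9BP1. The rule used no measured value other than brightness, which chose between probe sets in 3 genes, RAB7A, RAB13 and RAB44.

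The cells were H1299, an established human non-small cell lung carcinoma line without p53 of its own, into which a mouse p53 gene under a doxycycline-responsive (tet-on) switch had been stably placed. Uninduced cells carried this construct and were taken before induction; induced cells were the same line after 24 h in 0.5 µg/mL doxycycline, and both were kept in DMEM with 10% tet-free serum. The comparison asks which transcripts differ once p53 is made. Each group had 2 arrays, which the labels call technical replicates, so p-values measure only the spread between arrays and their number limits the precision. Among the samples analysed here none had doxycycline without the construct, so effects of the drug and of p53 cannot be told apart, and it was not stated whether the line is a single clone.

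A RAB acts as a switch. An exchange factor (GEF) loads it with GTP on a membrane, where it recruits effectors such as motors and tethers, and a GTPase-activating protein (GAP) makes it hydrolyse the GTP and turn off. Newly made RABs are escorted to a geranylgeranyl transferase, which adds the lipid that holds them in the membrane, and GDI carries inactive RABs back through the cytosol. Each RAB marks particular membranes, so the set present helps to define the route between the endoplasmic reticulum (ER), Golgi, endosomes, lysosomes and cell surface.

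The induction was visible in the arrays. CDKN1A, which encodes the cell cycle inhibitor p21, read 9.16 and 9.11 log2 units uninduced and 12.63 and 12.5 induced, and MDM2, the ubiquitin ligase for p53, read 9.84 and 9.85 against 12.7 and 12.76. Keratin genes KRT8 and KRT18 and the mesenchymal VIM were bright, with group means between 9.49 and 12.72. KRT8 rose 2.21-fold (adjusted p = 2.4e-04) and VIM fell 1.32-fold (adjusted p = 0.00556). The 18 blood, fibroblast and endothelial markers, which the line should lack, had a median level of 5.9, with gene means from 3.55 to 7.96, and 2 of them (CD3E and TEK) passed the test. Their median was 5.82 uninduced and 5.92 induced. Of 7 markers of differentiated lung epithelium, SFTPC and SCGB1A1 passed. Across all genes, Pearson's r was 0.995 to 0.997 within a group and 0.917 to 0.921 between groups.

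Of the 60 RAB GTPases, 16 rose on the induced arrays, 9 fell and 35 did not pass the test (limma, Benjamini-Hochberg adjusted p under 0.05 over all genes). The shares are 26.7% higher and 15.0% lower, against 20.6% higher and 24.6% lower among all genes tested, and in either direction 41.7% against 45.1%. At 2-fold or more, 6 GTPases rose (10.0%; 6.48% of all genes) and 1 fell (1.67%; 6.77% of all genes). The median log2 fold change of the GTPases was 0.06, and that of all genes 0.00. The 6 were RAB6B, RAB4A, RAB1A, RAB21, RAB24 and RAB6A, and the 1 was RAB27A. Of the 25 GTPase calls, 11 were of less than a 1.5-fold change, beside 3378 of the 8311 calls over all genes. The counts leaned on the number of arrays. With either uninduced array left out, fewer GTPases were called in each direction, and fewer of all genes were called as well. Some calls were lost in fits with 1 array left out, and the share of all genes that lost theirs was not computed. Calls lost in at least 1 such fit were those of RAB5C, RAB13, RAB14, RAB18, RAB26 and RAB27B among the rises, RAB10, RAB11A, RAB11B, RAB15, RAB22A, RAB23 and RAB27A among the falls, and RAB3GAP2.

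Dim genes were seldom called. Of the 71 genes, 5 had a mean level under the marker median of 5.9 and none of these was called, while 29 of the 66 brighter ones were (43.9%). Over all genes the shares called were 10.4% and 52.1%. The induced arrays did not overlap the uninduced arrays in 49 of the 71 genes (69.0%), a share close to the 66.8% of all genes.

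**Figure D1:**
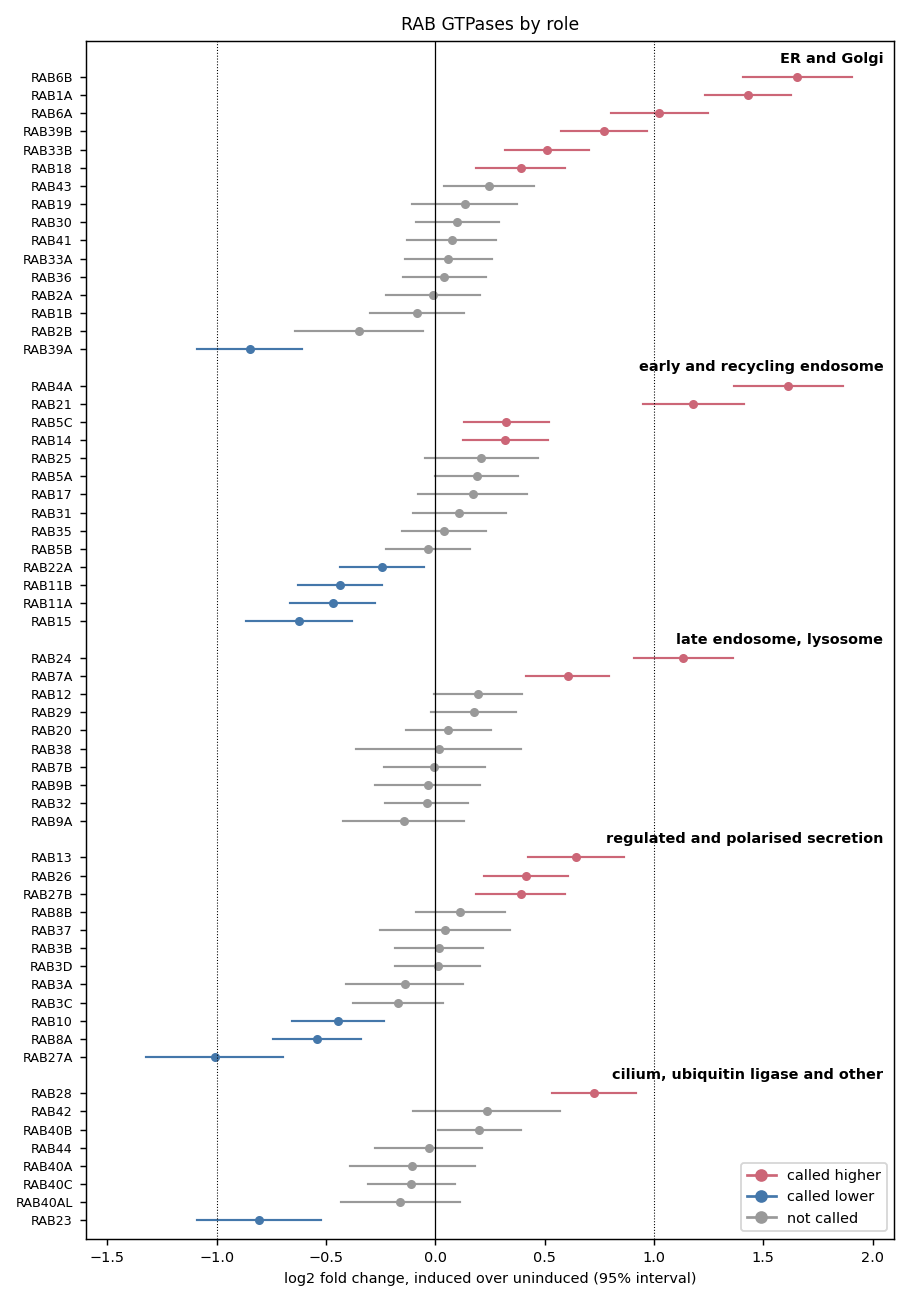
Log2 fold change of each of the 60 RAB GTPases, induced over uninduced, grouped by the membrane route of the protein; points are limma estimates from 2 arrays a group, lines 95% intervals, and dotted lines mark a 2-fold change. RAB6B at 1.655 and RAB4A at 1.615 lie farthest to the right, and RAB27A at -1.01 farthest to the left.

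RefSeq sequence of the 250 bases before the annotated start (GRCh38.p14) was at hand for 54 of the 71 genes, and 2 motifs were searched on both strands: the p53 half-site, the decamer of which a p53 response element holds a pair, and the E-box CACGTG, the palindrome bound by MYC, TFE3 and related factors. The motifs were chosen with the results known, and a match describes the sequence only. Shown are 7 of the 8 genes that changed 2-fold or more, as no sequence was at hand for RAB1A, which was not searched. RAB7A, which changed less, is shown as an example of the half-site. Capitals mark CACGTG in RAB4A, RAB21 and RAB24, and a p53 half-site in RAB7A. RAB3GAP1, RAB6B, RAB6A and RAB27A hold neither motif within this window and are all in lower case.
RAB4A, chr1:229270861-229271110, plus strand: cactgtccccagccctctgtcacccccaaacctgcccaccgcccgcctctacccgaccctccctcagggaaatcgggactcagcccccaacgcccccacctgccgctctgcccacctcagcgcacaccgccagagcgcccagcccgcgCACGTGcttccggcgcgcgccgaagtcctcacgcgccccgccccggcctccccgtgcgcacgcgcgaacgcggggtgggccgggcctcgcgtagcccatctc
RAB21, chr12:71754613-71754862, plus strand: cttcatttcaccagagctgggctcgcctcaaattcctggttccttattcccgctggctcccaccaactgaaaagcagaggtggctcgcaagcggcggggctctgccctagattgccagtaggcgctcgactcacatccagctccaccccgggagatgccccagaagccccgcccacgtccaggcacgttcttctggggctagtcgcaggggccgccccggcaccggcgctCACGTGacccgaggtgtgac
RAB24, chr5:177303720-177303969, minus strand: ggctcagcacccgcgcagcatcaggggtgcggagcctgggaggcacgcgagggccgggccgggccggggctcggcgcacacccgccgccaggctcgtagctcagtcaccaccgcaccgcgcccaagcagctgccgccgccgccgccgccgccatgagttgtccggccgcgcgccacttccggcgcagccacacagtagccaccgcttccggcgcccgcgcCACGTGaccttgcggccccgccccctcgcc
RAB7A, chr3:128725933-128726182, plus strand: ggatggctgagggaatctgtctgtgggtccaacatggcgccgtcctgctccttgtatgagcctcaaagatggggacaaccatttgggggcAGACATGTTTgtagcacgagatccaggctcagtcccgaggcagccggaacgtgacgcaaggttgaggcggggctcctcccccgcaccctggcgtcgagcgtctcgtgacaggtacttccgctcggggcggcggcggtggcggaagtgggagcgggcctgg
RAB3GAP1, chr2:135052042-135052291, plus strand: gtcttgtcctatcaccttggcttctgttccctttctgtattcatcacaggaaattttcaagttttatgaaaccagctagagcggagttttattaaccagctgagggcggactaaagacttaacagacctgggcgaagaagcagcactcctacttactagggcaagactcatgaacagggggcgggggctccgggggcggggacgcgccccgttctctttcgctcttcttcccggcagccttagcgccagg
RAB6B, chr3:133895883-133896132, minus strand: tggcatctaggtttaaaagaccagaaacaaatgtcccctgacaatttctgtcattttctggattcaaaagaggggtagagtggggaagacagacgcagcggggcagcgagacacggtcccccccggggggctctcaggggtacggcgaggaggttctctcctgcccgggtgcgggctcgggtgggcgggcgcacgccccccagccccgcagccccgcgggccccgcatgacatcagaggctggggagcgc
RAB6A, chr11:73761075-73761324, minus strand: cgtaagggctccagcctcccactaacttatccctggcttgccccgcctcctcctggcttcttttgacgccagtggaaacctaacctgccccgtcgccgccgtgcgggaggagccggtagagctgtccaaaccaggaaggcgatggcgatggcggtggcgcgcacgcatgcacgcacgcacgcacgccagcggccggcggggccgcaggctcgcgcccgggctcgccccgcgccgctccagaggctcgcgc
RAB27A, chr15:55319124-55319373, minus strand: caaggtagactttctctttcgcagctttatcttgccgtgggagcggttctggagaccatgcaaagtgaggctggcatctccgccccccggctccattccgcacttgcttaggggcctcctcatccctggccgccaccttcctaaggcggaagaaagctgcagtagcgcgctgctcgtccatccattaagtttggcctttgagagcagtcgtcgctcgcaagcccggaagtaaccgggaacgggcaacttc

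The E-box began 102 bases before the start in RAB4A, 20 in RAB21 and 30 in RAB24, and 99 in RAB3GAP2. These are 4 of the 15 genes that rose and had a sequence at hand (26.7%). None of the 8 that fell held it, and 2 of the 31 uncalled genes, RAB31 and RAB5A, did. In all, 6 of the 54 promoters held it (11.1%), against 7.86% of the 14237 promoters of measured genes and 6.49% of all 27305 promoters in the table. Among all genes called, it stood in 8.69% of the promoters of those that rose and 8.44% of those that fell. The p53 half-site was found in 4 of the 54 (7.41%; 5.1% of the promoters of measured genes and 5.53% of all promoters). They were RAB7A and RAB3GAP2, which rose, RAB23, which fell, and RAB5B, which did not pass the test. Among the 54 promoters, those of the 15 genes that rose had a median GC content of 65.2% and those of the 8 that fell 68.4%. The medians over all genes called were 66.0% for those that rose and 64.4% for those that fell.

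GTPases of the ER and Golgi held 3 of the 6 largest rises: of 16 measured, 6 rose (37.5%; 20.6% of all genes), 1 fell (6.25%; 24.6% of all genes) and 9 did not pass. RAB6B, a Golgi RAB best known from neurons, read 7.49 and 7.32 uninduced and 8.96 and 9.16 induced. That is 3.15-fold higher (SE 0.106 log2 units, adjusted p = 1.34e-05). RAB6A, which drives traffic from and within the Golgi in most cells, read 9.12 and 9.26 against 10.15 and 10.28, 2.04-fold higher (SE 0.095, adjusted p = 8.23e-05). RAB1A, which is required for transport from the ER to the Golgi and for autophagosome formation, went from 10.61 and 10.65 to 12.02 and 12.1, 2.69-fold higher (SE 0.084, adjusted p = 8.54e-06). In all 3 genes the lowest induced array lay well above the highest uninduced one.

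Smaller rises in this group were those of RAB39B, RAB33B and RAB18. RAB39B, a GTPase mutated in X-linked intellectual disability, read 5.98 and 5.96 against 6.7 and 6.78 (1.71-fold, SE 0.0835). It was dim, close to the level of the genes the line should lack. RAB33B, which binds the autophagy protein ATG16L1, rose 1.42-fold, and RAB18, found on the ER and lipid droplets, 1.31-fold. RAB39A fell from 8.02 and 8.24 to 7.23 and 7.33, 1.80-fold lower (SE 0.103, adjusted p = 3.25e-04). RAB2B read 8.45 and 8.54 against 7.97 and 8.32, and its log2 change of -0.35 (adjusted p = 0.0557) was the largest in size among the genes that did not pass. RAB43 read 7.83 and 7.7 against 8.03 and 7.99 (adjusted p = 0.0577). The remaining 7 uncalled genes, RAB1B, RAB2A, RAB19, RAB30, RAB33A, RAB36 and RAB41, changed by -0.085 to 0.135.

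Early and recycling endosome GTPases moved both ways: 4 of 14 rose (28.6%), 4 fell (28.6%) and 6 did not pass, beside the 20.6% and 24.6% of all genes. RAB4A, which returns receptors quickly from early endosomes to the surface, read 7.99 and 8.11 uninduced and 9.55 and 9.78 induced, 3.06-fold higher (SE 0.106, adjusted p = 1.47e-05). RAB21, which binds integrins and moves them through early endosomes, read 9.43 and 9.57 against 10.6 and 10.76, 2.27-fold higher (SE 0.0982, adjusted p = 4.74e-05). For both genes the gap between the groups was several times the gap between arrays of a group. RAB5C, a regulator of early endosome fusion, read 11.26 and 11.18 against 11.55 and 11.54, and RAB14, which works between Golgi and endosomes, 10.45 and 10.46 against 10.74 and 10.81. These rises were 1.25-fold each.

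Both RAB11 genes, which act in the slow route through the recycling endosome, fell. RAB11A, the main RAB of the recycling endosome, fell from 10.34 and 10.32 to 9.83 and 9.89, 1.39-fold lower (SE 0.0823, adjusted p = 0.00227). RAB11B, its close relative, fell from 10.58 and 10.52 to 10.12 and 10.11, 1.35-fold lower (SE 0.0822, adjusted p = 0.00335). RAB25, the third of this subfamily and largely epithelial, was dim at 5.7 and 5.5 against 5.91 and 5.71. It did not pass (adjusted p = 0.174). RAB15 fell 1.54-fold, from 7.86 and 7.65 to 7.07 and 7.19. RAB22A fell 1.19-fold with an adjusted p of 0.0447, the weakest call of the set. It lost that call under renewed quantile normalization, under median centring, in a fit over all rows and with the replicate number as a block. RAB5A read 9.82 and 9.83 against 10.02 and 10.01 (adjusted p = 0.099), and RAB5B, RAB17, RAB31 and RAB35 changed by -0.035 to 0.17 without passing.

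Among 10 late endosome, lysosome and related GTPases, 2 rose (20%; 20.6% of all genes), none fell (24.6% of all genes) and 8 did not pass, none of these with an unadjusted p under 0.05 in limma. RAB24, an unusual RAB with low GTPase activity linked to autophagy, read 8.87 and 8.83 uninduced and 9.89 and 10.08 induced, 2.20-fold higher (SE 0.0955, adjusted p = 5e-05). RAB7A, which directs late endosomes and autophagosomes to lysosomes, read 12.18 and 12.16 against 12.76 and 12.79. It rose 1.52-fold by this probe set (SE 0.0812, adjusted p = 5.65e-04), and the 2 arrays of each group lay within 0.03 of each other. A second, dimmer RAB7A probe set read 6.61 and 6.9 against 8.18 and 8.12, a log2 change of 1.395 (adjusted p = 0.00114 over all rows of the array). The direction was shared and the size was not. RAB7B, RAB9A, RAB9B, RAB12, RAB20, RAB29, RAB32 and RAB38 changed by -0.145 to 0.195. RAB38 and RAB32 serve the melanosome, and RAB38 had the widest interval of the uncalled GTPases, -0.36 to 0.39.

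In regulated and polarised secretion, 3 of 12 GTPases rose (25%; 20.6% of all genes), 3 fell (25%; 24.6% of all genes) and 6 did not pass. RAB27A, which docks secretory lysosomes, melanosomes and exosome-bearing compartments at the cell surface, read 7.98 and 8.2 uninduced and 6.91 and 7.25 induced. It was 2.01-fold lower (SE 0.134, adjusted p = 5.27e-04), with more spread between arrays than most. Its log2 change was -0.95 after renewed quantile normalization and -0.96 after median centring, short of 2-fold. It was -0.90 without uninduced replicate 2, where the call was lost (adjusted p = 0.0576). RAB8A, which acts in exocytosis and cilium growth, fell 1.45-fold, from 8.98 and 8.87 to 8.38 and 8.39. RAB10, needed for insertion of the glucose transporter GLUT4, fell 1.36-fold, from 10.99 and 11.1 to 10.55 and 10.65.

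RAB13, a GTPase of tight junctions and epithelial polarity, rose 1.56-fold, from 9.74 and 9.75 to 10.48 and 10.3, and its second probe set gave 1.60-fold. RAB26, found on secretory granules, rose 1.33-fold. RAB27B, the relative of RAB27A with overlapping duties in exosome release, read 7.85 and 7.81 against 8.16 and 8.28, 1.31-fold higher (adjusted p = 0.00768). The 4 RAB3 GTPases of synaptic and endocrine vesicles did not pass: RAB3A, RAB3B, RAB3C and RAB3D changed by -0.17 to 0.015. RAB8B and RAB37 changed by 0.115 and 0.045, also without passing.

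Of the 8 GTPases of the cilium, ubiquitin ligase and other groups, 1 rose (12.5%; 20.6% of all genes), 1 fell (12.5%; 24.6% of all genes) and 6 did not pass. RAB28, a ciliary GTPase mutated in cone-rod dystrophy, read 9.87 and 9.88 against 10.58 and 10.62, 1.65-fold higher (SE 0.0813, adjusted p = 2.21e-04). RAB23, a brake on Hedgehog signalling, fell from 8.67 and 8.81 to 7.78 and 8.09, 1.75-fold lower (SE 0.12, adjusted p = 0.00101). The RAB40 genes carry a SOCS box that joins a cullin ubiquitin ligase. None of the 4 measured passed, with changes of -0.16 for RAB40AL, -0.11 for RAB40C, -0.105 for RAB40A and 0.20 for RAB40B. RAB40A and RAB40AL are nearly identical in sequence, so their probe sets may read both. RAB42 and RAB44 changed by 0.235 and -0.03.

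**Figure D2:**
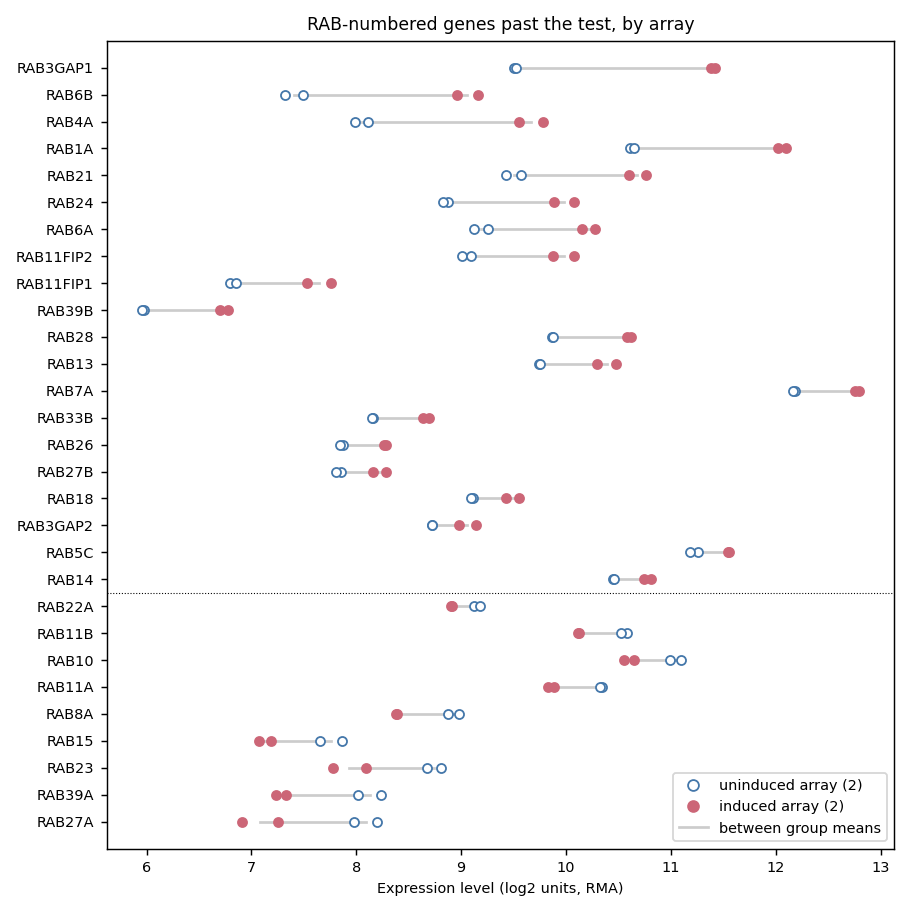
Expression level (log2 units, RMA) on each array of the 29 RAB-numbered genes that passed the test, ordered by fold change, with 20 higher genes above the dotted line and 9 lower genes beneath it. Open points are the 2 uninduced arrays, filled points the 2 induced arrays, and grey bars join the group means; the longest bar is that of RAB3GAP1.

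The largest change of all 71 genes was in a regulator. RAB3GAP1, the catalytic subunit of a complex that inactivates RAB3 and also serves as exchange factor for RAB18, read 9.5 and 9.52 uninduced and 11.42 and 11.38 induced, 3.71-fold higher (SE 0.0815, adjusted p = 2.39e-06). Its partner RAB3GAP2, the noncatalytic subunit, read 8.72 and 8.72 against 8.98 and 9.14, 1.27-fold higher (adjusted p = 0.0176). Of their substrates, RAB18 rose 1.31-fold and the RAB3 genes did not pass, as given above. The exchange factors of RAB8, RAB3IP (Rabin8) and RAB3IL1, changed by -0.035 and 0.075 and did not pass.

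The RAB11FIP proteins are effectors that bind RAB11. RAB11FIP2, which links RAB11 vesicles to the motor myosin Vb, read 9.01 and 9.09 against 9.88 and 10.08, 1.91-fold higher (adjusted p = 1.63e-04). RAB11FIP1, also called RCP, which recycles integrins and receptors, read 6.8 and 6.85 against 7.53 and 7.76, 1.77-fold higher (adjusted p = 3.73e-04). RAB11A and RAB11B themselves were lower, as described. RAB11FIP3, RAB11FIP4 and RAB11FIP5 changed by -0.08 to 0.095 and did not pass. In all, 4 of the 9 RAB-binding genes rose, none fell in limma's test and 5 did not pass. The share called in either direction, 44.4%, lay close to the 45.1% of all genes, and the share that rose was 44.4% beside 20.6%. None of those 5 had an unadjusted p under 0.05. Of the pseudogenes, RAB1C changed by 0.14 and RAB9BP1 by 0.19, and neither passed.

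Same-number relatives were set side by side. Families with more than 1 measured GTPase of the same number came to 13, with 31 genes. In 2 families the members passed in opposite directions: RAB27A fell 2.01-fold and RAB27B rose 1.31-fold, and RAB39A fell 1.80-fold while RAB39B rose 1.71-fold. The RAB39 calls were kept whichever array was left out, and both RAB27 calls were lost in at least 1 such fit. In 2 families every member passed in the same direction, RAB6 upwards and RAB11 downwards. In 4 families (RAB2, RAB3, RAB9 and RAB40) no member passed, and in the other 5 some members passed, all of them in 1 direction within a family. The RAB1 pair lay farthest apart among these: RAB1A rose 2.69-fold, whereas RAB1B, its near twin in ER-to-Golgi transport, read 11.15 and 10.99 against 11.0 and 10.97. The 95% interval of the RAB1B log2 change was -0.30 to 0.13, so a change the size of that in RAB1A lies outside it. Differences between relatives were not tested.

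**Figure D3:**
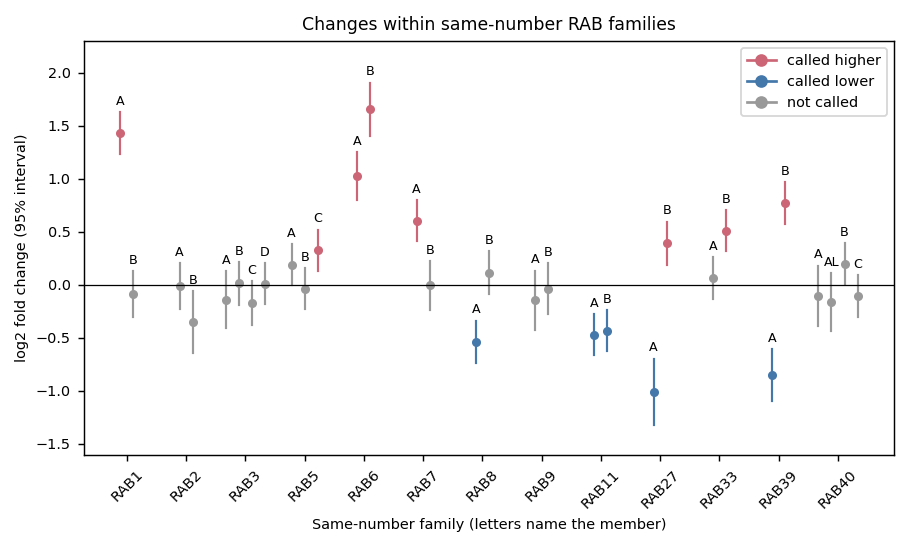
Log2 fold change with 95% interval for the 31 GTPases of the 13 same-number families, coloured by call; letters give the member. RAB27 and RAB39 have members called on both sides of 0, and every member was called above it in RAB6 and below it in RAB11.

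Transcripts of the proteins that run the RAB cycle were measured through lists of 135 genes, of which 129 had a probe set. Of these, 46 rose (35.7%), 24 fell (18.6%) and 59 did not pass; the shares over all genes were 20.6% and 24.6%. The median log2 fold change was 0.13. With an uninduced array left out, fewer list genes were called lower, and fewer of all genes were called. The lists were drawn up with earlier results of these data known, so their direction is a description.

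Lipid attachment showed changes in both directions among its 5 measured genes. CHML, an escort protein (REP-2) that presents new RABs to the transferase, read 8.9 and 9.1 uninduced and 6.81 and 7.03 induced, 4.23-fold lower (SE 0.112, adjusted p = 5.96e-06). RABGGTA, the alpha subunit of the transferase, rose 2.34-fold, from 8.34 and 8.28 to 9.51 and 9.56 (adjusted p = 1.76e-05). RABGGTB, the beta subunit that completes the same enzyme, fell 2.12-fold, from 10.48 and 10.51 to 9.26 and 9.56 (adjusted p = 1.5e-04). The transcripts of the 2 subunits of 1 enzyme thus passed in opposite directions, and protein was not measured. GDI2 and RABAC1 did not pass, at 0.115 and -0.14.

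Of 44 exchange factor genes, 13 rose (29.5%; 20.6% of all genes), 8 fell (18.2%; 24.6% of all genes) and 23 did not pass. The share called in either direction, 47.7%, lay close to the 45.1% of all genes. DENND2C, of the DENN domain exchange factors, went from 5.48 and 5.66, a level like that of genes the line should lack, to 7.7 and 7.94, 4.76-fold higher. TRAPPC9, a subunit of the TRAPPII exchange complex, rose 4.45-fold, from 8.74 and 8.8 to 10.95 and 10.9. RIC1, a subunit of the exchange factor for RAB6, rose 2.68-fold, and RIN2, an exchange factor for RAB5, 2.17-fold. RGP1, the partner subunit of RIC1, fell 1.23-fold (limma adjusted p = 0.0226), and TRAPPC10, also of TRAPPII, did not pass at 0.125. RGP1 and TRAPPC10 were added after their values were seen. MADD, which activates RAB3 and RAB27, was lower by 1.91-fold; it was picked out after its values were seen.

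Of 37 TBC domain genes, which encode GAPs, 16 rose (43.2%; 20.6% of all genes), 7 fell (18.9%; 24.6% of all genes) and 14 did not pass. The largest rises were RABGAP1L at 3.06-fold, TBC1D31, a centriolar satellite protein, at 2.73-fold, TBC1D2, a GAP for RAB7, at 2.64-fold, and TBC1D5, a GAP for RAB7 that binds retromer, at 2.31-fold. RAB7A itself rose, as given above.

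Of 40 effector genes, 15 rose (37.5%; 20.6% of all genes), 6 fell (15.0%; 24.6% of all genes) and 19 did not pass. At 2-fold or more there were 9 rises (22.5%; 6.48% of all genes) and 3 falls (7.5%; 6.77% of all genes). MYO5A, a myosin motor that RAB27A vesicles use through an adaptor, read 8.47 and 8.67 against 10.69 and 10.8, 4.52-fold higher (adjusted p = 3.2e-06). MICALL1, which acts with RAB8 and RAB35 on recycling endosomes, rose 2.90-fold, and RILPL2, of the RILP family, 2.89-fold. EHBP1, which binds RAB8 and RAB10, fell 2.57-fold, from 8.28 and 8.4 to 7.08 and 6.88. The effectors of RAB27 were looked at after their values were seen. SYTL4 and SYTL2 rose 2.34-fold and 2.17-fold and EXPH5 fell 2.42-fold, while MLPH and MYRIP, at 0.035 and 0.105, did not pass. SYTL1, SYTL3, SYTL5, UNC13D and RPH3AL did not pass either, with changes of -0.18 to 0.13. SYTL2 was dim uninduced, at 5.48 and 5.38, a level like that of genes the line should lack. RILP, the RAB7 effector that recruits dynein, rose 2.31-fold, and BICD1, which joins RAB6 vesicles to dynein, fell 2.22-fold; both were also picked after their values were seen.

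Among kinases and phosphatases that act on RABs, LRRK2, which phosphorylates RAB8A and RAB10, fell 1.52-fold (limma adjusted p = 0.00143). It read 6.54 and 6.69 uninduced and 5.95 and 6.08 induced, the latter close to the level of genes the line should lack. The LRRK2 call was lost without uninduced replicate 2. PPM1H, the phosphatase that reverses phosphorylation by LRRK2, rose 1.28-fold (limma adjusted p = 0.0196). The PPM1H call was lost in 6 of the alternative fits, among them the replicate block, and LRRK1 did not pass at -0.18.

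**Figure D4:**
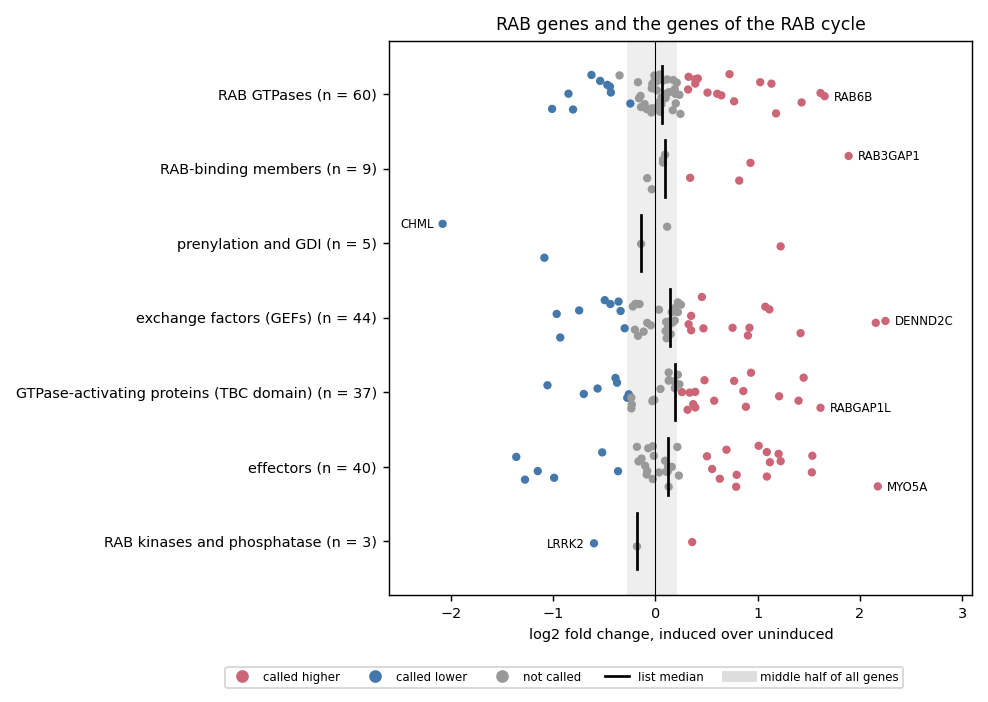
Log2 fold changes of the RAB GTPases, RAB-binding members and the genes of the RAB cycle, 1 point a gene, with list medians as black bars and the middle 50% of all genes, -0.265 to 0.20, shaded. The gene with the largest change in each list is named; CHML at -2.08 lies farthest left and DENND2C at 2.25 farthest right.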

How the data were processed

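Total RNA was labelled with biotin and hybridised to Affymetrix arrays, per the labels' protocols. The deposited values are log2 expression levels, made by the authors with Affymetrix Expression Console and RMA, per the submitters' processing notes; their versions and settings were not given in the sources used here. RMA equalises the arrays' distributions, so a shift common to every transcript would go unseen, and folds of dim genes are compressed. Of 33297 rows, 19460 had 1 gene symbol, 1754 several and 12083 none; gene IDs of 19429 matched the RefSeq table of GRCh38.p14. The brightest probe set per gene gave 18417 genes; 3 of the 71 members have more than 1.

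limma 3.58.1 in R 4.3.3 compared induced with uninduced arrays (lmFit and eBayes without covariates, two-sided; residual degrees of freedom 2, moderated 7.20), adjusted over all genes, called under 0.05. Tables and figures used Python 3.11.15, numpy 2.4.6, pandas 2.3.3 and matplotlib 3.10.9. The fit was tested on simulated data. Alternatives were renewed quantile normalization, median centring, a filter on dim probe sets, averaged probe sets, all rows, an intensity trend with a robust prior, treat against a fold of 1.2, the replicate block and leaving out each array. Members and lists were chosen with earlier results of these data known, and the roles of RAB1C and RAB9BP1 were assigned after the table was read. Per-array values are given for GTPases called at 2-fold, their same-number relatives, the 2 largest changes of each role and RAB-binding members called at 2-fold, and the 4 largest called changes of each list are named. Per-array values of other members, and other list genes, were added after values were seen.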

Additional observations from a re-analysis of the deposited data

Results flagged for a closer look

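Some RAB probe sets carry several gene symbols and so stood outside the comparison. They were fitted with all rows of the array, where 39.7% of the named genes were called. Those that passed are given first. The set shared by NARR and RAB34, a GTPase of the Golgi and cilium, read 9.36 and 9.25 uninduced and 8.44 and 8.41 induced, a log2 change of -0.88 (limma adjusted p = 0.0016). The sets shared by RAB6A, RAB6C and RAB6D changed by 0.76 (adjusted p = 0.00199) and 0.95 (adjusted p = 0.0019), beside 1.025 for the RAB6A set. The set shared by EGLN2 and its read-through with RAB4B changed by -0.315 (adjusted p = 0.0371). The set of RAB43 and its read-through with ISY1 did not pass, at 0.245 (limma adjusted p = 0.176). Nor did the set of RAB4B and its read-throughs, at 0.04 (adjusted p = 0.776). The set of RAB5IF and its read-through with TGIF2, at -0.23, did not pass either (adjusted p = 0.0886). A set with several symbols cannot say which of its genes changed.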

How the results depend on the processing

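With the replicate number as a block (replicate block), 16 GTPases were called higher and 8 lower, and the call lost was that of RAB22A. In that fit 44 list genes rose and 22 fell, and 42.5% of all genes were called, 45.9% of these calls being rises. Deviations of same-numbered arrays correlated at 0.22; the labels do not say that a number marks shared material, and 2 pairs are too few to settle it. Against a fold of at least 1.2 (limma's treat), 11 GTPases were called higher and 5 lower, and 32 list genes higher and 14 lower. That fit called 29.7% of all genes in either direction, beside 45.1% in the main fit, and 45.7% of its calls over all genes were rises. After quantile normalization again, or after centring each array on its median, 0 GTPases fell 2-fold, since RAB27A lay at -0.95 and -0.96; these scalings moved the median of all genes by 0.035 and 0.05. Leaving out 1 array at a time gave 10 to 16 GTPases called higher, 3 to 9 lower and 0 to 1 lower at 2-fold, and 11 to 19 list genes lower. Without an array, 1 group has a single array, which is taken to vary like the others. Of 584 values of 49 named genes under the alternatives, 529 kept direction and call, 55 lost the call and 0 reversed. Of the 29 member calls, 15 were kept under every alternative that tested them; RAB11FIP1 and RAB39B were not tested without dim probe sets. Low signal limits the dim genes.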

Other observations

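The genes next to the largest RAB changes on the chromosome, by RefSeq order, moved either way. The 8 RAB-numbered genes that changed 2-fold had 16 nearest measured neighbours. Of these, 5 passed in the same direction, 7 in the opposite direction and 4 not at all. Over all genes 45.1% passed, 20.6% higher and 24.6% lower. The nearest measured genes on either side of RAB27A also fell, RSL24D1 at -0.505 and PIGB at -0.99. RAB4A lay between RHOU at -0.60 and CCSAP at -0.44, both lower while it rose. RAB44 is the neighbour of CDKN1A: CDKN1A rose by 3.43 log2 units, and RAB44 changed by -0.03, with a 95% interval of -0.27 to 0.21.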
